A study of Mus musculus with 7 samples.

Results

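The actin isoforms of striated muscle and of the cytoplasm were compared between left ventricles of WT mice and of mice homozygous for the A178D change in titin. The members are *Acta1* (skeletal α-actin), *Actc1* (cardiac α-actin), *Actb* (β-actin) and *Actg1* (cytoplasmic γ-actin), 4 of the 20927 genes in the count table. They were named by symbol and found through their Ensembl identifiers, and the smooth muscle actins were left out of the set. RNA was sequenced from 3 WT hearts, carrying the replicate numbers 1, 3 and 4, and from 4 A178D hearts, numbered 1 to 4, with 1 library per heart. The labels give the strain C57BL/6J for every mouse. The edited allele was made with CRISPR-Cas9 in C57BL/6N embryonic stem cells, carries a silent change beside the missense change, and was backcrossed onto C57BL/6J before WT and homozygous littermates were bred. No treatment is named for these mice, and the age and sex of those sequenced are not given in the sources used here. As a model the A178D line has 1 edited allele studied in the homozygous state, and its hearts show a mild dilated cardiomyopathy.

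Actin monomers polymerise into the filaments on which myosin pulls. In adult ventricular myocytes the sarcomeric thin filament is built mostly from cardiac α-actin, while skeletal α-actin is the main sarcomeric actin of skeletal muscle and is also made in the foetal heart and in overloaded or failing ventricles. β-actin and cytoplasmic γ-actin form the cytoskeleton of nearly every cell type, so that in whole ventricle their transcripts come from myocytes and from all other cells together.

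The libraries held from 33080675 to 54245530 counts, with a median of 51797208 in WT and of 41398874 in A178D. Levels are given as CPM, the count scaled to the size of its library, after TMM scaling, a correction of library size that rests on the bulk of the genes. Differences between the genotypes are log2 fold changes of A178D over WT from edgeR's quasi-likelihood test, with p-values adjusted by Benjamini-Hochberg over 13894 tested genes, and a gene is called below an adjusted p of 0.05. By this rule 1 of the 4 actins was called higher and 0 were called lower, against 1.04% of all tested genes called higher, 1.31% called lower and 2.35% called in either direction. DESeq2 also called 1 of the 4. Over the 13153 genes it tested, it called 290 higher and 375 lower, more than edgeR did. In edgeR 2 of the 4 actins had an unadjusted p under 0.05, as did 16.7% of all tested genes. In 2 of the 4 the hearts of the genotypes did not overlap, which was so for 16.1% of all tested genes. All of these p-values reflect the spread between hearts. The counts of called genes were sensitive to single hearts. In edgeR 145 genes were called higher and 182 lower with all hearts. There were 22 and 31 without WT replicate 3, and 40 and 42 without WT replicate 4. There were 40 and 50 without A178D replicate 1, and 78 and 112 without A178D replicate 3. Without A178D replicate 2 the lower calls numbered 115.

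*Acta1* rose strongly in A178D hearts. The gene (ENSMUSG00000031972) lies on the minus strand at chr8:123891769-123894751 (GRCm38), and its main transcript has 7 exons. Its level was 183, 72.0 and 69.3 CPM in WT replicates 1, 3 and 4, from 9593, 3924 and 2816 counts. In A178D replicates 1, 2, 3 and 4 it was 811, 495, 706 and 672 CPM, from 32724, 26116, 30135 and 21753 counts. The genotypes did not overlap, and the lowest A178D heart lay well above WT replicate 1, which itself stood above the other WT hearts. The mean rose from 108 ± 64.6 CPM (SD, n = 3) to 671 ± 131 CPM (SD, n = 4). This was a log2 fold change of 2.64 ± 0.29 (SE), or 6.21-fold, with an edgeR adjusted p of 0.000652. DESeq2 gave 2.64 with a wider SE of 0.45. By log2 fold change *Acta1* stood 5 in the order of the 13894 tested genes, and by mean CPM it moved from place 1559 in WT to place 182 in A178D. The call held in each fit that left out 1 heart, with an adjusted p of at most 0.0109. Without WT replicate 1 the log2 fold change was 3.25.

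**Figure D1:**
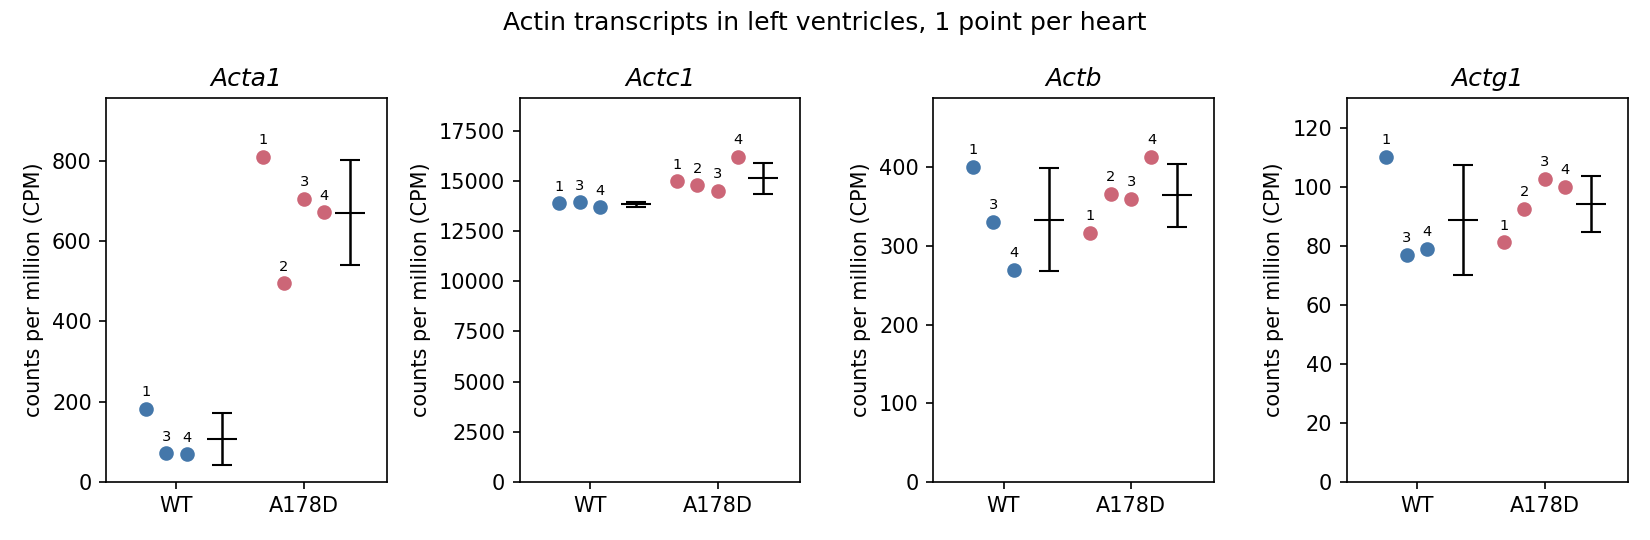
CPM of the 4 actin transcripts in each heart on linear axes from 0, with 1 point per heart and its replicate number, and beside the points the mean with its SD (3 WT and 4 A178D hearts). *Acta1* lies between 69.3 and 183 CPM in WT and between 495 and 811 CPM in A178D, *Actc1* is separated by a narrow gap, and the WT and A178D points of *Actb* and *Actg1* overlap.

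*Actc1* was by far the more abundant striated isoform in every heart. The gene (ENSMUSG00000068614) lies on the minus strand at chr2:114047282-114053548, with 7 exons in its main transcript. Its level was 13886, 13934 and 13700 CPM in WT replicates 1, 3 and 4, and 14986, 14783, 14511 and 16216 CPM in A178D replicates 1, 2, 3 and 4. All A178D hearts lay above all WT hearts, and A178D replicate 4 was the highest. The means were 13840 ± 124 CPM (SD, n = 3) and 15124 ± 754 CPM (SD, n = 4). The log2 fold change was 0.13 ± 0.06 (SE), and the edgeR adjusted p of 0.293 did not pass the threshold. When trends of the counts with the length and the GC content of transcripts were taken out, the log2 fold change was 0.05 with an adjusted p of 0.509, so that the size of this difference moved with the scaling. Its direction was the same without each heart. *Actc1* held place 4 among the tested genes by mean CPM in both genotypes.

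The make-up of the striated pair was then taken within each library, as the percentage of the *Acta1* and *Actc1* counts that came from *Acta1*, a share that no library scaling enters. The share was 1.30, 0.514 and 0.503% in WT replicates 1, 3 and 4. It was 5.13, 3.24, 4.64 and 3.98% in A178D replicates 1, 2, 3 and 4. Every A178D heart had a larger *Acta1* share than any WT heart, and WT replicate 1 again stood above the other WT hearts. The WT mean was 0.772 ± 0.455% and the A178D mean 4.25 ± 0.821% (SD, n = 3 and n = 4), a ratio of 5.51. Without WT replicate 1 this ratio was 8.35. The two-sided exact permutation test gave p = 0.0286, the smallest p that the 35 assignments of 3 and 4 hearts allow. Adjusted by Benjamini-Hochberg over the 6 shares compared, this exact p became 0.0571, which did not pass 0.05. The log2 ratio of *Acta1* to *Actc1* counts averaged -7.16 ± 0.79 (SD) in WT and -4.52 ± 0.30 (SD) in A178D, a difference of 2.64.

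Over all 4 actins the gain of *Acta1* was mirrored by *Actc1*. *Acta1* held 1.25, 0.499 and 0.491% of the actin counts in WT replicates 1, 3 and 4, and 5.01, 3.15, 4.50 and 3.86% in A178D replicates 1, 2, 3 and 4. *Actc1* held 95.2, 96.7 and 97.0% in the same WT hearts, and 92.5, 93.9, 92.5 and 93.2% in the A178D hearts. Neither share overlapped between the genotypes, with *Acta1* higher and *Actc1* lower in all 4 A178D hearts, although *Actc1* CPM itself was not lower in any of them. The mean *Actc1* share was 96.3 ± 0.948% in WT and 93.1 ± 0.664% in A178D (SD, exact permutation p = 0.0286, 0.0571 adjusted over the 6 shares). Shares of 1 heart sum to 100 and are therefore not independent. The 95% Wilson intervals of these shares were at most 0.132 percentage points wide in any heart. They cover counting error only and take each count as independent, which would make them too narrow if both ends of a fragment were counted. They were smaller than the SD between hearts, but technical noise other than counting error was not measured.

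**Figure D2:**
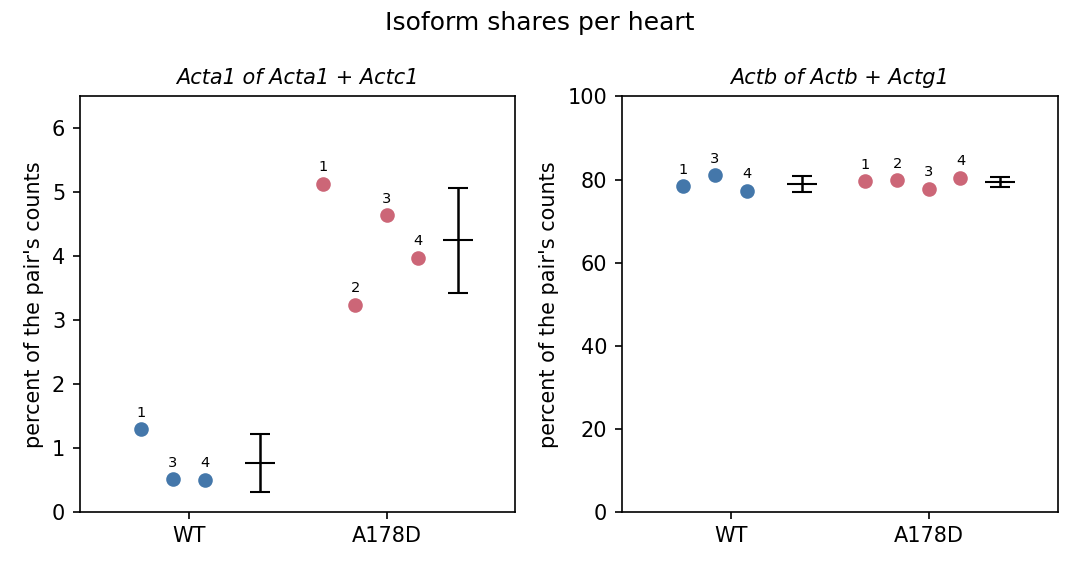
Share of *Acta1* in the counts of the striated pair (left) and of *Actb* in those of the cytoplasmic pair (right), in percent, with 1 numbered point per heart and the mean with its SD beside the points (3 WT and 4 A178D hearts). The *Acta1* share runs from 0.503 to 1.30% in WT and from 3.24 to 5.13% in A178D, while the *Actb* share lies between 77.3 and 81.1% in all hearts.

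*Actb*, the more abundant cytoplasmic isoform, showed no difference that passed the test. The gene (ENSMUSG00000029580) lies on the minus strand at chr5:142903115-142906754, with 6 exons. Its level was 400, 331 and 270 CPM in WT replicates 1, 3 and 4, and 317, 366, 360 and 414 CPM in A178D replicates 1, 2, 3 and 4. The genotypes overlapped over most of their range, WT replicate 1 being close to the highest A178D heart. The log2 fold change was 0.13 ± 0.12 (SE), with an edgeR adjusted p of 0.630. It had no stable direction, at 0.28 without WT replicate 1 and -0.01 without WT replicate 4, and was 0.07 with the length and GC trends taken out.

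*Actg1* was likewise not called. The gene (ENSMUSG00000062825) lies on the minus strand at chr11:120345690-120348542, with 6 exons. Its level was 110, 77.2 and 79.1 CPM in WT replicates 1, 3 and 4, and 81.4, 92.8, 103 and 100.2 CPM in A178D replicates 1, 2, 3 and 4. WT replicate 1 was the highest of all 7 hearts and the other WT hearts were the lowest, so that the A178D hearts fell between them. The log2 fold change was 0.09 ± 0.12 (SE), with an edgeR adjusted p of 0.771. Leaving out WT replicate 1 gave 0.27, leaving out WT replicate 3 gave -0.01, and taking out the length and GC trends gave 0.03.

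Within the cytoplasmic pair, *Actb* held 78.4, 81.1 and 77.3% of the counts in WT replicates 1, 3 and 4, and 79.6, 79.8, 77.8 and 80.5% in A178D replicates 1, 2, 3 and 4. The hearts of the genotypes were interleaved. The means were 78.9 ± 1.93% (SD, n = 3) and 79.4 ± 1.16% (SD, n = 4), and the exact permutation test gave p = 0.714. The 95% Wilson intervals of single hearts were at most 1.38 percentage points wide. The log2 ratio of the cytoplasmic to the striated pair averaged -5.06 ± 0.26 (SD) in WT and -5.11 ± 0.13 (SD) in A178D, and the genotypes overlapped.

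Levels of the 4 isoforms can be set beside each other only per length of transcript. In CPM per kilobase of main transcript, *Actc1* had a mean of 9396 ± 83.9 (SD) in WT and 10267 ± 512 (SD) in A178D. *Actb* had 174 ± 34.1 and 190 ± 20.6 CPM per kilobase, *Acta1* 74.6 ± 44.7 and 464 ± 90.7, and *Actg1* 45.5 ± 9.57 and 48.3 ± 4.92 (SD, WT then A178D). In all 3 WT hearts the order was *Actc1*, *Actb*, *Acta1*, *Actg1*. In all 4 A178D hearts *Acta1* had moved ahead of *Actb*, giving the order *Actc1*, *Acta1*, *Actb*, *Actg1*. In WT, *Acta1* and *Actg1* were neighbours whose means differed by less than the SD of *Acta1*, with 49.8 against 39.5 CPM per kilobase in WT replicate 3 and 47.9 against 40.5 in WT replicate 4. The level of *Acta1* per length was 0.412 ± 0.169 times that of *Actb* in WT and 2.49 ± 0.691 times in A178D (SD of the ratio over hearts). *Actc1* nonetheless remained the leading isoform per length, at 153 ± 67.8 times the level of *Acta1* in WT and 22.8 ± 4.88 times in A178D, with 18.1 the lowest ratio in any heart.

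**Figure D3:**
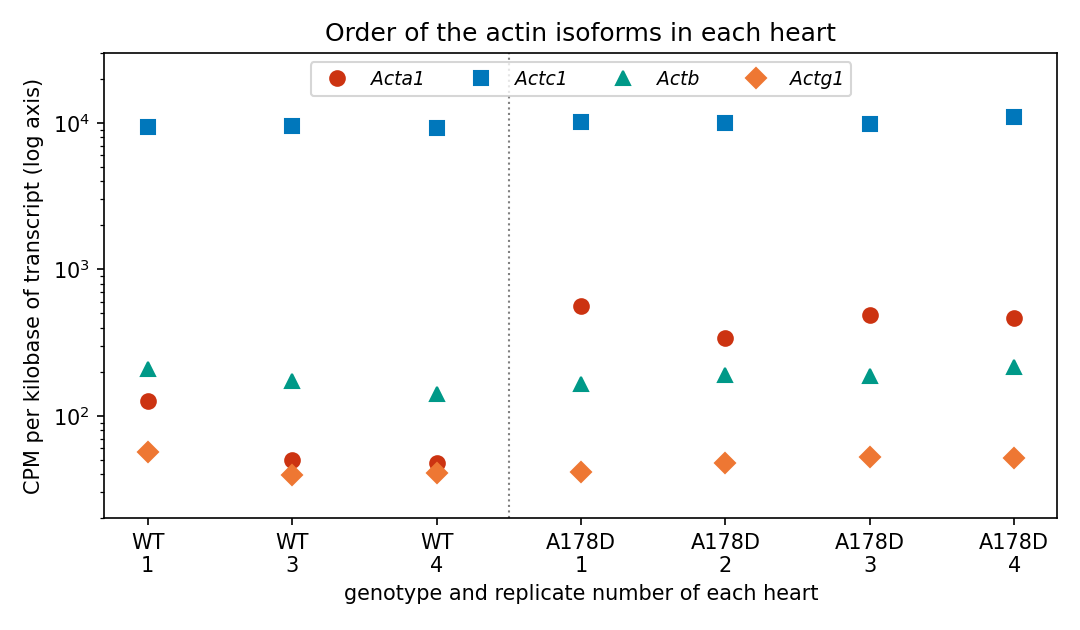
Level of each actin in CPM per kilobase of its main transcript (log axis) in each of the 7 hearts, ordered by genotype and replicate number. *Acta1* lies below *Actb* in the 3 WT hearts and above it in the 4 A178D hearts, while *Actc1* is highest and *Actg1* lowest in every heart.

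The summed level of the 4 actins was 14579, 14414 and 14118 CPM in WT replicates 1, 3 and 4, and 16195, 15737, 15680 and 17402 CPM in A178D replicates 1, 2, 3 and 4. No A178D sum was as low as the highest WT sum. The mean was 14370 ± 234 CPM (SD) in WT and 16254 ± 799 CPM (SD) in A178D, a difference of 1883 CPM or 13.1%. Of this difference *Actc1* made up 1284 CPM, *Acta1* 563 CPM, *Actb* 30.7 CPM and *Actg1* 5.44 CPM. This division holds for TMM scaling only. The difference of *Actc1* did not pass the test, and its log2 fold change was 0.05 with the length and GC trends taken out.

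The coding sequences of the isoforms are alike, which bears on how well their reads can be told apart. Aligned over the coding sequence of the main transcripts, *Acta1* and *Actc1* were identical at 86.2% of 1134 bases, and *Actb* and *Actg1* at 88.7% of 1128 bases. The longest run of identical bases that *Acta1* and *Actc1* transcripts share was 29 bases, against a read length of 76 bases, while *Acta1* and *Actb* share a run of 77 bases. The start of each coding sequence is shown because it holds such differences close together. The first 60 coding bases, on the minus strand within exon 2 of each main transcript, differ at 9 positions between *Acta1* (chr8:123893638-123893697) and *Actc1* (chr2:114051972-114052031), with the differing bases in capitals.
Acta1: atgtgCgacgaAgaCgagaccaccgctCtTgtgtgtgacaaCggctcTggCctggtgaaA
Actc1: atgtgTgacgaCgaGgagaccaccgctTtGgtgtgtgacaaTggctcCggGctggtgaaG

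*Actb* (chr5:142905627-142905686) and *Actg1* (chr11:120348032-120348091) also differ at 9 positions over their first 60 coding bases, also on the minus strand in exon 2, with the differing bases in capitals.
Actb: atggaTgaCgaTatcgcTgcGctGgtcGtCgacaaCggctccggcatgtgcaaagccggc
Actg1: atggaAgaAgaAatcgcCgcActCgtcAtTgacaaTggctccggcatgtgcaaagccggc

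Of the 1371 windows of 76 bases in the main *Acta1* transcript, 5 (0.4%) were found unchanged in an annotated transcript of another gene, 2 of them in *Actb*, and of the 1398 windows of *Actc1* 0 were found. For *Actb* the figure was 46 of 1845 windows (2.5%), most of them in *Lrrc58* and in the pseudogene *Gm15725*. *Actg1* stood apart, with 1020 of 1877 windows (54.3%) found in 10 other genes, of which 9 are annotated as pseudogenes, led by *Gm12715* with 895 windows. None of these 10 genes has an entry in the count table. How reads that match several places were counted is not given in the sources used here, so the level of *Actg1*, and its share beside *Actb*, is the most uncertain of the 4.

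Serum response factor, a transcription factor known to act on many actin and cytoskeletal genes, binds a motif called the CArG box. RefSeq promoter sequences (GRCm38.p6) were at hand for *Acta1*, *Actc1* and *Actg1*, 3 of the 4 members. Among the 250 bases before the start of transcription, each of the 3 had a CArG box in its strict form, 2 cytosines, 6 bases that are A or T and 2 guanines, a pattern that reads the same way on both strands. The strict form was found in 1.47% of the 32817 promoters searched. It was not found in the same 250 bases of *Acta2*, a smooth muscle actin outside the set. The boxes are shown because the called member and members that were not called carry them alike, at 63, 37 and 80 bases before the start. The windows run 5′ to 3′ on the minus strand at chr8:123894824-123894863, chr2:114052898-114052937 and chr11:120348561-120348600, upstream of the main transcripts, with the box in capitals.
Acta1: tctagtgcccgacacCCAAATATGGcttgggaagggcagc
Actc1: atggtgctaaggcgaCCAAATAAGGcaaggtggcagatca
Actg1: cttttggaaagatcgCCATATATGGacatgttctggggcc

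The letters CATTCC, the core of the motif of TEAD factors, were searched on both strands of the same 250 bases. They were found in the *Acta1* promoter, 40 bases before the start, and not in that of *Actc1* or *Actg1*. The promoter of *Acta2*, a smooth muscle actin outside the set, also held them, 140 bases before the start, and 12.6% of all promoters held them. A match in these letters is a description of the sequence only.

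The genes whose log2 CPM ran most like that of each actin over the 7 hearts were sought among 12211 genes that were not scarce. For *Acta1* these were *Tnfrsf23*, a decoy receptor, *Cdkn1a*, which encodes the cell-cycle inhibitor p21, and *Akap1*, a kinase anchor of mitochondria (r = 0.9996, 0.991 and 0.983), all of which were themselves called higher in A178D hearts. Computed on deviations from the genotype means, r with *Acta1* was 0.999, 0.917 and 0.914. For *Actc1* they included *Trim54* and *Tex264* (r = 0.991 and 0.9904), neither of them called. For *Actb* they were *Lsm2*, *Bcl6b* and *Ccnj* (r = 0.973, 0.966 and 0.964), and for *Actg1* *Astn1*, *Ubfd1* and *Smim13* (r = 0.979, 0.968 and 0.966). Among the members, *Actb* and *Actg1* were the most alike (r = 0.826, and 0.813 within genotypes). *Acta1* and *Actc1* had r = 0.777 over the 7 hearts but 0.090 within genotypes, where little association between them was left. All of these values describe 7 hearts. The genes most like each actin were picked by their r among 12211 genes. Such picking by itself favours high values, also for the r within genotypes, which uses the same hearts.

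Outside the set, the smooth muscle actin *Acta2* moved the opposite way. Its level was 177, 213 and 183 CPM in WT replicates 1, 3 and 4, and 108, 127, 134 and 137 CPM in A178D replicates 1, 2, 3 and 4. All A178D hearts were below all WT hearts. The log2 fold change was -0.59 ± 0.09 (SE), with an edgeR adjusted p of 0.00587, and the call held in each fit that left out 1 heart. *Actg2*, the enteric smooth muscle actin, was scarce, at 1.69 ± 0.685 CPM in WT and 0.828 ± 0.307 CPM in A178D (SD), and was not called (edgeR adjusted p = 0.167). Of 19 further actins and actin-related proteins 9 were tested, and *Acta2* was the 1 called (2.35% of all tested genes). Their median log2 fold change was 0.02, against 0.00 over all tested genes. Among them *Actr1a*, a dynactin subunit, had 153 ± 4.31 CPM in WT and 161 ± 4.70 CPM in A178D (SD).

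New actin is folded by the chaperonin CCT with prefoldin, and its ends and histidine are then modified by further enzymes. Of 22 such genes edgeR called 0 (2.35% of all tested genes), while 3 had an unadjusted p under 0.05 (16.7% of all tested genes). DESeq2 called 1, *Cct3*, a CCT subunit, and over the 13153 genes it tested it called 290 higher and 375 lower. *Cct3* had 120 ± 0.727 CPM in WT and 147 ± 11.7 CPM in A178D (SD), with adjusted p = 0.0570 in edgeR and 0.00744 in DESeq2. The list's median log2 fold change was 0.09. Its most abundant members, *Tcp1* and *Cct8*, also CCT subunits, had log2 fold changes of 0.12 and 0.15 that were not called.

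Genes of filament turnover, nucleation and crosslinking were read against 2.35% of all tested genes called and 16.7% with an unadjusted p under 0.05. The unadjusted p was under 0.05 for 6 of 26 turnover genes, 5 of 26 nucleation genes and 8 of 20 crosslinking genes. In turnover, 2 of 26 tested genes were called by edgeR. DESeq2, which called 290 of 13153 genes higher and 375 lower, added *Limk2*, a kinase that acts on cofilin. *Twf2*, which caps filaments and binds monomers, rose from 199 ± 21.5 to 261 ± 28.7 CPM (SD; log2 fold change 0.39 ± 0.10, SE; adjusted p = 0.0479), and *Tmod3*, a cap of the pointed end, fell from 69.5 ± 3.77 to 56.0 ± 2.59 CPM (SD; log2 fold change -0.31 ± 0.07, SE; adjusted p = 0.0394). *Gsn* and *Lmod2*, the most abundant turnover genes, had log2 fold changes of 0.10 and -0.11 and were not called. In nucleation, 1 of 26 was called, the formin *Inf2* (37.0 ± 2.05 to 27.7 ± 3.77 CPM, SD; log2 fold change -0.42, adjusted p = 0.0499), while *Fhod3*, the most abundant member and a formin of the sarcomere, had -0.09 and *Arpc2* 0.01. In crosslinking, 2 of 20 were called, both lower, among them the filamin *Flna* (296 ± 29.8 to 220 ± 21.0 CPM, SD; log2 fold change -0.43, adjusted p = 0.0230). The muscle filamin *Flnc* had a log2 fold change of 0.22 and the Z-disc α-actinin *Actn2* 0.05, neither called. In all of the called genes the hearts of the genotypes did not overlap (16.1% of all tested genes), which a call by itself makes likely. The medians of the lists were 0.02, -0.03 and -0.06. None of these calls held without WT replicate 3, where the edgeR adjusted p was 0.187 for *Twf2*, 0.189 for *Tmod3*, 0.220 for *Inf2* and 0.141 for *Flna*. Of the 7 fits that left out 1 heart, *Twf2* was called only without WT replicate 1 (0.0185) or A178D replicate 3 (0.0461), *Tmod3* only without WT replicate 1 (0.0261) or A178D replicate 4 (0.0423), and *Inf2* only without A178D replicate 4 (0.0173). *Flna* was also lost without WT replicate 1 (0.0511) or A178D replicate 1 (0.0884).

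The regulators listed for serum response factor include *Srf* itself and other transcription factors and cofactors, such as those of the Mef2, Gata and Tead families. Whether they act on serum response factor in these hearts was not tested. Of these regulators 9 of 22 had a log2 fold change above 0, and of the targets listed 9 of 23. Over all 13894 tested genes 7018 did. In either direction, 6 of the 22 and 5 of the 23 had an unadjusted p under 0.05 (16.7% of all tested genes). Of all tested genes 2.35% were called by edgeR, while DESeq2 called 290 higher and 375 lower of 13153. Of 22 tested regulators, 1 was called by edgeR, *Gata6*, a cardiac transcription factor, which fell from 66.9 ± 3.10 to 50.6 ± 3.95 CPM (SD; log2 fold change -0.40 ± 0.08, SE; adjusted p = 0.0177) with no overlap. DESeq2 also called *Csrp3*, a muscle LIM protein, which had 1511 ± 93.5 CPM in WT and 1818 ± 192 CPM in A178D (SD; adjusted p = 0.123 in edgeR and 0.0480 in DESeq2). *Srf* itself had 126, 115 and 98.9 CPM in WT replicates 1, 3 and 4, and 113, 114, 105 and 145 CPM in A178D replicates 1, 2, 3 and 4. The genotypes overlapped, with a log2 fold change of 0.07 ± 0.11 (SE) and an edgeR adjusted p of 0.806. *Fhl2*, the most abundant regulator, had a log2 fold change of 0.09 and was not called. Of 23 tested targets 2 were called, both lower, *Flna* and the myosin light chain *Myl9* (58.6 ± 7.10 to 41.7 ± 6.78 CPM, SD; log2 fold change -0.49, adjusted p = 0.0494), while *Tpm1*, the main striated tropomyosin, had 0.02. *Flna* also stands in the crosslinking list and *Myl9* among the smooth muscle markers. The target list leaves out the actins, *Acta1* and *Acta2* among them, and the smooth muscle markers *Tagln*, *Cnn1* and *Myh11*. *Ankrd1*, the next most abundant target after *Tpm1*, had a log2 fold change of 0.67. It lay above 0, unlike the called targets, and was not called (edgeR adjusted p = 0.0591). The medians were -0.04 for the regulators and -0.09 for the targets. Without WT replicate 3 the edgeR adjusted p was 0.0823 for *Gata6* and 0.106 for *Myl9*. *Gata6* was also lost without WT replicate 4 (0.0975) or A178D replicate 1 (0.0595), and *Myl9* was called only without A178D replicate 4 (0.0343).

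*Acta1* is commonly counted among the genes of the foetal cardiac programme. The list used here is wider than the paper's, which places *Ankrd1* with hypertrophic signalling instead. Of 9 other tested genes of the list edgeR called 1 (2.35% of all tested genes), *Nppa*, which encodes atrial natriuretic peptide. Of the 9, 7 had an unadjusted p under 0.05 (16.7% of all tested genes), all with a log2 fold change above 0. *Nppa* had 249, 188 and 109 CPM in WT replicates 1, 3 and 4, and 529, 364, 322 and 588 CPM in A178D replicates 1, 2, 3 and 4. The genotypes did not overlap, and the log2 fold change was 1.31 ± 0.24 (SE, edgeR adjusted p = 0.0146). That call was lost without WT replicate 3 (adjusted p = 0.0860), WT replicate 4 (0.0598) or A178D replicate 1 (0.0555). *Myh7*, the β-myosin heavy chain, had 783, 336 and 398 CPM in WT replicates 1, 3 and 4 and from 779 to 1091 CPM in A178D, with WT replicate 1 just above the lowest A178D heart (log2 fold change 0.84 ± 0.22, SE, edgeR adjusted p = 0.0670). *Ankrd1*, the most abundant gene of the list, had 1054 ± 318 CPM in WT and 1674 ± 316 CPM in A178D (SD), also overlapping and not called (adjusted p = 0.0591), and *Xirp2*, the next, had a log2 fold change of 0.11. The median log2 fold change of the list was 0.67, which is the value of *Ankrd1*. WT replicate 1, the WT heart with the most *Acta1*, also had the highest *Nppa*, *Myh7* and *Ankrd1* of the WT hearts.

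Because skeletal muscle makes much *Acta1*, a list of 20 skeletal muscle markers was followed beside it. Of these 12 were tested, with a median log2 fold change of 0.60. An unadjusted p under 0.05 was found for 5 of the 12 (16.7% of all tested genes). The genotypes did not overlap in 3 of the 12 (16.1% of all tested genes). The called markers were 3, all higher, where 1.04% of all tested genes were called higher. They were *Casq1*, the skeletal calsequestrin (8.35 ± 1.28 to 18.4 ± 3.30 CPM, SD; log2 fold change 1.14, edgeR adjusted p = 0.00210), *Neb*, which encodes nebulin (6.94 ± 2.35 to 15.9 ± 4.66 CPM, SD; log2 fold change 1.21, adjusted p = 0.0200), and *Ryr1*, the skeletal ryanodine receptor (0.740 ± 0.188 to 1.78 ± 0.283 CPM, SD; adjusted p = 0.0328), each without overlap. The call of *Casq1* held in each fit that left out 1 heart, and those of *Neb* and *Ryr1* held in 4 and 2 of 7, with an adjusted p of 0.0957 for *Neb* and 0.128 for *Ryr1* without WT replicate 4, 0.0574 and 0.104 without A178D replicate 1, 0.0530 and 0.0857 without A178D replicate 3, and for *Ryr1* 0.159 without WT replicate 3 and 0.0694 without A178D replicate 2. The summed level of the list was 112, 107 and 111 CPM in WT replicates 1, 3 and 4, and 144, 147, 129 and 131 CPM in A178D replicates 1, 2, 3 and 4, less than *Acta1* alone in every A178D heart. *Cacna1s*, the most abundant marker, had 36.6 ± 8.87 CPM in WT and 34.7 ± 3.41 CPM in A178D (SD), and *Mybpc2* 29.7 ± 1.57 and 32.3 ± 1.59 CPM (SD). The fast-fibre markers *Myl1* (22.7 ± 4.04 and 28.9 ± 4.71 CPM), *Atp2a1* (0.999 ± 0.183 and 1.79 ± 0.608 CPM) and *Tnnt3* (0.330 ± 0.160 and 0.653 ± 0.211 CPM; SD, WT then A178D) had higher A178D means and were not called. *Mylpf*, *Tnni2* and *Actn3* had log2 fold changes of -0.61, -0.14 and -0.18 and were not called either. The 8 markers too scarce to be tested were near 0 in both genotypes. The fast myosin heavy chains *Myh1*, *Myh2* and *Myh4* did not exceed 0.114, 0.293 and 0.037 CPM in any heart. *Tnnc2*, *Pvalb*, *Myog*, *Mybpc1* and *Ckmt1* did not exceed 0.341, 0.185, 0.047, 0.266 and 0.285 CPM.

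Markers of the cell types of the ventricle were read in the same way, since fewer cells of a type and less RNA per cell cannot be told apart in whole tissue. DESeq2 called 290 of 13153 genes higher and 375 lower. By edgeR 1.04% of all tested genes were called higher, 1.31% were called lower and 16.7% had an unadjusted p under 0.05. The unadjusted p was under 0.05 for 2 of 10 cardiomyocyte, 9 of 10 smooth muscle and 4 of 10 fibroblast markers. It was so for 2 of 10 endothelial and 6 of 10 macrophage markers. Of 10 cardiomyocyte markers 1 was called, *Mybpc3*, higher (5606 ± 329 to 6918 ± 225 CPM, SD), the median log2 fold change was 0.00, and the summed level was 97100 ± 3290 CPM in WT and 95840 ± 4190 CPM in A178D (SD), with *Myh6* the most abundant. Of 10 smooth muscle markers 7 were called, all lower, with a median of -0.61. *Des*, the most abundant, was not called and had a log2 fold change of 0.08. The 7 were *Myh11*, *Tagln*, *Cnn1*, *Acta2*, *Mylk*, *Lmod1* and *Myl9*, of which *Tagln* and *Acta2* kept their call in each of the 7 fits that left out 1 heart, *Myh11* in 5, *Mylk* in 2, and *Cnn1*, *Lmod1* and *Myl9* in 1 each. Their sum with the others was 3203 ± 55.8 CPM in WT and 3140 ± 323 CPM in A178D (SD), most of it *Des*, which is also made by cardiomyocytes. Of 6 pericyte markers edgeR called 0, with 3 at an unadjusted p under 0.05, 3 called lower by DESeq2 and a median of -0.28, and their sum, led by *Abcc9*, was 1072 ± 22.8 and 925 ± 99.7 CPM (SD). Of 10 fibroblast markers 1 was called, *Col3a1*, higher (2 higher in DESeq2), with a median of 0.09 and a sum, led by *Dcn*, of 1317 ± 75.2 and 1491 ± 68.6 CPM (SD). Of 10 endothelial markers 1 was called, *Flt1*, lower, while DESeq2 also called *Cldn5* higher, with a median of 0.06 and a sum, led by *Kdr*, of 1330 ± 81.0 and 1306 ± 28.9 CPM (SD). Of 10 macrophage markers 2 were called, *Cx3cr1* and *Lyz2*, both higher (3 higher in DESeq2), with a median of 0.25 and a sum, led by *Lyz2*, of 384 ± 50.6 and 460 ± 25 CPM (SD). Without WT replicate 3 the calls of *Mybpc3* (adjusted p = 0.111), *Col3a1* (0.113), *Flt1* (0.102), *Cx3cr1* (0.0530) and *Lyz2* (0.0915) were lost, and of the 7 fits that left out 1 heart they held in 3, 3, 3, 6 and 2. Of 3 tested atrial markers edgeR called 0, with 2 at an unadjusted p under 0.05 and 1, *Nr2f2*, called lower by DESeq2, and of 4 erythrocyte markers, led by *Hbb-bs*, neither tool called any and none had an unadjusted p under 0.05. Since *Actb* and *Actg1* are made in all of these cells, the part of these cell types in the cytoplasmic actin levels was not tested.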

How the data were processed

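Poly(A) RNA of 3 WT and 4 A178D left ventricles was sequenced as stranded libraries with paired reads of 76 bases. The authors deposited raw counts per gene, and a signal table of counts divided by size factors, used only as an alternative scale. The submitters' processing notes name bcl2fastq 2.18.0.12, HISAT2 2.1.0, SAMtools 1.6, DESeq2 1.26.0 and GRCm38. The counting program is not given in the sources used here. Identifiers were matched to GENCODE M21, and 268 of 21257 entries had no name. Of 442 entries with the same counts as another, 223 were removed, as were 107 low repeats, which left 20927 genes. None of the actins shared its counts with another entry. Odd numbers made up 17.6 to 20.3% of the counts from 1 to 20 in a library, so that both ends of a fragment may have been counted.

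Genes that reached 10 counts in 3 or more libraries were tested with edgeR 4.0.16 in R 4.3.3 (TMM, glmQLFit, glmQLFTest, genotype as the sole term). The SE of an edgeR log2 fold change was worked back from this test, as its absolute value divided by the square root of the F statistic. The tested genes held 99.986% of counts, and the biological coefficient of variation was 0.111. Shares were compared by an exact permutation test of the difference of means in Python 3.11.15. The scripts were tested on simulated data. Sequences were aligned with Biopython 1.88. Alternatives were DESeq2 1.42.0, its size factors in edgeR, limma-voom (limma 3.58.1), other filters, the replicate number as a block, the table as deposited, length and GC offsets (mgcv 1.9.3), a threshold of 0.01, leaving out each heart, and other denominators and lengths for the shares and levels. The members and the gene lists were chosen with earlier results of these data known. Named genes were the members, the smooth muscle actins, most called members of each list, skeletal markers near 0, and genes among the 3 most like each member. Also named were the 2 most abundant members of each list, or at least the most abundant for markers of ventricular cell types, atria and erythrocytes. *Cct3*, *Limk2*, *Cldn5*, fast-fibre markers, *Srf*, *Tagln* and *Myh7* were singled out after their values were seen. Genes compared for likeness had a mean of 50 counts or more.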

Additional observations from a re-analysis of the deposited data

Results flagged for a closer look

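Among 78 groups of 4 A178D values examined, 4 had a heart set apart from the other 3 by a gap that took up more than 0.829 of the whole range. Chance alone sets apart about 1 in 20 such groups. The log2 ratio of the cytoplasmic to the striated pair was -5.31 in A178D replicate 1, lower than in the other A178D hearts, with a gap of 0.932 of the range. This heart also had the most *Acta1* and the least *Actb* and *Actg1* of the A178D hearts. The others were single marker genes, each with 1 heart above the rest, namely *Col3a1* at 323.8 CPM in A178D replicate 2, *Dcn* at 646.3 CPM in A178D replicate 1 and *Mybpc2* at 34.7 CPM in A178D replicate 1. Groups of 3 WT hearts were not put through this check. Among them, WT replicate 1 had 183 CPM of *Acta1*, against 72.0 and 69.3 CPM in WT replicates 3 and 4.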

How the results depend on the processing

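*Acta1* was called higher under each of the 8 other fits and without each heart, with log2 fold changes from 2.55 (length and GC offsets) to 2.91 (replicate block) and from 2.40 to 3.25. *Actc1*, *Actb* and *Actg1* were called under none of them. Without each heart in turn their log2 fold changes ran from 0.09 to 0.15, from -0.0053 to 0.28 and from -0.00735 to 0.27. Genes called higher and lower numbered 290 and 375 in DESeq2, 239 and 286 with the offsets, 24 and 40 at an adjusted p under 0.01, and from 22 to 215 and from 31 to 238 without each heart. What caused these shifts was not tested, apart from the stricter threshold, which can only lower the counts. DESeq2 called 1 gene of actin folding, where edgeR called 0, and 2 of the regulators listed for serum response factor, where edgeR called 1.

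Without each heart the differences, A178D minus WT, in the share of the actin counts ran from 3.09 to 3.71 points for *Acta1*, from -3.81 to -2.91 for *Actc1*, from -0.28 to 0.14 for *Actb* and from -0.0776 to 0.0334 for *Actg1*. The *Acta1* share of the striated pair differed by 3.18 to 3.81 points and the *Actb* share of the cytoplasmic pair by -0.33 to 1.55 points. The log2 ratios differed by 2.41 to 3.10 (*Acta1* to *Actc1*), -0.0303 to 0.13 (*Actb* to *Actg1*) and -0.17 to 0.0919 (cytoplasmic to striated). With 6 hearts the exact test cannot go below 0.0667 or 0.1. Shares of the length-corrected counts and of 6 actins kept their direction and their side of the threshold.

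Same-numbered hearts did not deviate together over all genes (correlations of 0.003, -0.04 and -0.042). Hearts of different numbers ran from -0.07 to 0.066. The labels give the numbers as replicates only, and a pairing that touches few genes cannot be seen in these correlations. With the replicate number as a block, 124 genes were called higher and 147 lower. The paired differences were 3.71 points for the *Acta1* share, -3.56 for the *Actc1* share, 3.81 for the *Acta1* share of the striated pair and 2.77 for the log2 ratio of *Acta1* to *Actc1*, where 3 pairs allow no p under 0.25. These values rest on 3 pairs of hearts.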
